A study of Homo sapiens with 15 samples.

Results

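The HOX cluster genes are the genes of the HOXA, HOXB, HOXC and HOXD clusters, taken here with their antisense genes and the long noncoding RNAs HOTAIR and HOTTIP. Members were all probe sets whose single gene symbol in the platform annotation begins with one of these cluster names, or is HOTAIR or HOTTIP. The rule found 63 probe sets for 37 genes, out of 54675 probe sets and 19775 genes in the series. They are 5 genes of the HOXA cluster on chromosome 7, 12 of the HOXB cluster on chromosome 17, 11 of the HOXC cluster on chromosome 12 and 9 of the HOXD cluster on chromosome 2. Of the 39 coding HOX genes in the RefSeq table, 28 were covered, which includes all 10 of HOXB and all 9 of HOXC, 8 of the 9 of HOXD and 1 of the 11 of HOXA. The other coding HOX genes were not analysed here, so the HOXA cluster was seen mainly through its noncoding genes.

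RNA was measured on 15 one-colour expression arrays in 5 groups of 3 biological replicates. A2780 is a human ovarian cancer line labelled as cisplatin sensitive, and CP70 is a line derived from it that is labelled as cisplatin resistant. CP70 was left untreated or given decitabine (0.1 µM for 48 h), PXD101 (0.1 µM for 48 h), or decitabine (0.1 µM for 48 h) with PXD101 (0.1 µM) for the last 24 h. The treatment text once heads the combined arm A2780/cp80 but describes A2780/cp70 cells under it, and it was read as CP70, as in the titles. Treated cells were collected 96 h after the drugs were withdrawn, and no A2780 sample was treated. All cells were grown in the same medium with serum. Decitabine is a nucleoside analogue that inhibits DNA methyltransferases, and PXD101 (belinostat) inhibits histone deacetylases. The sources do not say whether CP70 is a single clone. Values are the deposited log2 signals, and a level is given per array and as a mean over 3 arrays with its SD. Signals of different probe sets are not on a common scale, so genes are not ranked by level. The median and lower quartile of all gene values serve only as rough marks of strong and weak signal on these arrays. Arrays are bulk measurements, in which fewer cells with a transcript and less transcript per cell cannot be told apart.

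HOX genes encode homeodomain transcription factors that give cells their position along the body axis, and their order in each cluster, from group 1 to group 13, follows the order of their expression in the embryo. In cell lines they often keep the pattern of the tissue of origin, held in place by Polycomb and Trithorax proteins and opened in early development by retinoic acid. Their proteins bind DNA together with the PBX and MEIS cofactors. In the female tract, HOXA genes of the posterior groups pattern the Müllerian duct.

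One untreated array stood apart. Over all genes, untreated CP70 replicate 2 had correlations of 0.995 to 0.997 to the 3 PXD101 arrays, but 0.983 to 0.986 to untreated CP70 replicates 1 and 3, where replicates within each of the other 4 groups were at 0.993 to 0.997. Array medians lay between 5.00 and 5.06. To gauge RNA quality, the actin probe set at the 3' end exceeded that at the 5' end by 0.337 to 0.377 log2 in A2780, 0.629 to 0.859 in untreated CP70, 0.384 to 0.509 with PXD101, 0.424 to 0.491 with both drugs and 0.342 to 0.787 with decitabine. This difference was smaller on every A2780, PXD101 and both-drug array than on any untreated CP70 array, while the decitabine arrays overlapped. Its part in the results was not tested. Marker lists of cell types moved with some comparisons. Of 5 epithelial markers, EPCAM and KRT18 rose between the lines (0.88 and 1.84), and 4 rose after decitabine (KRT19 by 2.67, KRT8 by 1.37, KRT18 by 0.96 and EPCAM by 0.71). The same 4 rose after both drugs and KRT19 alone after PXD101, while the cadherin CDH1 had means in the lower quartile of all gene values (under 4.34) in every group. The summed level of the 5 was 27.9 to 29.7 in A2780, 31.3 to 31.8 in untreated CP70, 36.4 to 38.0 after decitabine, 31.1 to 31.7 after PXD101 and 37.5 to 38.6 after both drugs. Of 5 Müllerian markers, PAX8 had means of 7.08 in A2780 and 7.28 in untreated CP70, and WT1, MUC16, EMX2 and SOX17 were in that quartile in every group, although EMX2 was called higher between the lines (0.45) and lower after PXD101 (-0.57) and both drugs (-0.56). Their summed level was 20.9 to 21.4, 21.4 to 22.5, 21.3 to 22.0, 20.5 to 21.4 and 21.4 to 21.6 in the same order of groups. Of 4 leukocyte markers measured, none was called between the lines by limma or rank product or had an unadjusted p under 0.05 there, and TYROBP rose after decitabine (1.30) and both drugs (1.17), with the defining marker PTPRC in the lower quartile in every group. Their summed level was 17.8 to 18.8 in A2780, 17.8 to 18.7 in untreated CP70, 19.7 to 20.0 after decitabine, 17.99 to 18.66 after PXD101 and 19.5 to 20.0 after both drugs. Of 6 fibroblast and endothelial markers, DCN rose (3.43) and COL1A2 (-2.48) and PDGFRB (-0.39) fell between the lines, and COL1A2 fell after decitabine (-0.72) and both drugs (-0.76). Their summed level was 37.3 to 37.9, 37.9 to 38.8, 37.0 to 37.4, 37.4 to 38.7 and 36.9 to 37.5 in the same order, with the endothelial CDH5 in the lower quartile throughout. The calls of KRT19 and EMX2 after PXD101 belong to a comparison whose calls depended on single arrays, as given below. The part of these markers in the results was not tested. Results that rest on untreated CP70 are given with and without replicate 2 where its removal changes them.

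In untreated CP70 against A2780, the HOXB cluster rose almost as a block, 4 HOXC genes fell, and none of the HOXD coding genes was called in limma. At an adjusted p under 0.05 in limma, 15 of the 37 HOX genes rose and 4 fell, beside 31.2% of all 19775 genes called in this contrast (16.1% higher and 15.2% lower). The 15 genes that rose were 10 of 12 in HOXB, 2 of 5 in HOXA, 2 of 11 in HOXC and 1 of 9 in HOXD, and the 4 that fell were all in HOXC. The 3 CP70 arrays lay wholly above the 3 A2780 arrays in 15 of the 37 genes, beside 20.6% of all genes. They lay wholly below in 4 of the 37, beside 17.7%. These were the same 19 genes on the same arrays, so the lack of overlap adds no separate evidence. The median log2 change was 1.79 over the HOXB genes, -0.17 over HOXC, 0.09 over HOXD and 0.01 over all genes. Rank product called 19 of the 37, beside 21.1% of all genes.

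**Figure D1:**
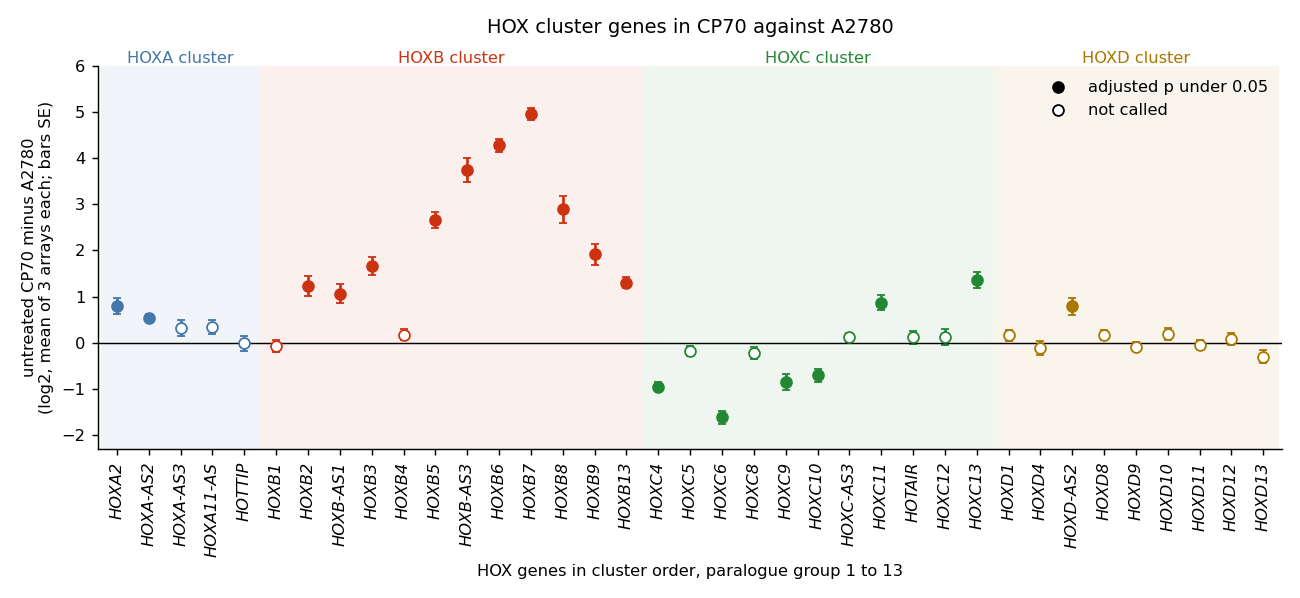
Log2 change in untreated CP70 against A2780 (vertical axis) for the 37 HOX genes in cluster order (horizontal axis), as a difference of means of 3 arrays with its SE; filled points have an adjusted p under 0.05. Apart from HOXB-AS1 and HOXB4, the changes rise from HOXB2 to a peak of 4.96 at HOXB7 and decline to 1.30 at HOXB13, HOXC changes run from -1.62 at HOXC6 to 1.35 at HOXC13, and in HOXD only HOXD-AS2 is filled.

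The centre of the HOXB cluster changed most. HOXB7, a group 7 homeobox factor, had log2 values of 4.99, 5.33 and 5.18 on the A2780 arrays and 10.10, 10.08 and 10.21 on the untreated CP70 arrays. The change was 4.96 ± 0.13 (SE; 31.2-fold; adjusted p = 2.13e-13). HOXB6, its neighbour in the cluster, was at 4.66, 4.51 and 5.09 in A2780 and at 9.08, 9.20 and 8.81 in untreated CP70, a change of 4.27 ± 0.15 (SE; 19.3-fold; adjusted p = 5.35e-12). For both genes the lines were separated by many times the spread between replicates, and the CP70 arrays lay close together.

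HOXB-AS3 is a long noncoding RNA whose gene overlaps HOXB5 and HOXB6 on the other strand in the RefSeq table. Its values were 3.39, 3.76 and 4.28 in A2780 and 8.09, 6.92 and 7.65 in untreated CP70, a change of 3.75 ± 0.26 (SE; 13.4-fold; adjusted p = 2.21e-08). All CP70 arrays were far above all A2780 arrays, with replicate 2 the lowest of the 3. HOXB5, a group 5 factor, was at 6.26, 6.73 and 5.97 in A2780 and at 9.14, 8.69 and 9.10 in untreated CP70, a change of 2.66 ± 0.17 (SE; 6.31-fold). The A2780 arrays of HOXB5 varied among themselves by less than 1 log2 unit and stayed below every CP70 array. The sources used here do not say whether these probe sets tell the antisense transcripts from the coding genes they overlap.

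The antisense gene is shown because it had the largest change among the noncoding members and the largest fall after the drugs. In RefSeq (GRCh38.p14), the 250 bases before its start are chr17:48595708-48595957, on the plus strand, printed with the CG pairs at which DNA is methylated in capitals.
HOXB-AS3: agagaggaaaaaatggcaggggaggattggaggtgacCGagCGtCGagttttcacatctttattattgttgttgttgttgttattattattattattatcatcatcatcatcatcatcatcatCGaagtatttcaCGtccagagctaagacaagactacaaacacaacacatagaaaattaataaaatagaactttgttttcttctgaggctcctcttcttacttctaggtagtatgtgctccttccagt
This window holds 5 CG pairs, where the median over 35116 RefSeq windows of this length was 11. For HOXB-AS1, the antisense gene that overlaps HOXB2 and HOXB3, the window is chr17:48544101-48544350 on the plus strand and holds 4 CG pairs.
HOXB-AS1: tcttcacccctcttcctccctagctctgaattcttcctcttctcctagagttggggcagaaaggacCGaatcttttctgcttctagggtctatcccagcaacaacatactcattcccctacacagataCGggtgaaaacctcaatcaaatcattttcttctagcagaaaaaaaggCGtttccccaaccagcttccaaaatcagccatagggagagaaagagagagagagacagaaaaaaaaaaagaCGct
Of the 37 HOX members, 18 matched a window, and they held from 0 to 38 CG pairs with a median of 11.5.

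Further along the cluster the rises were smaller. HOXB8 was at 4.28, 4.56 and 3.23 in A2780 and at 6.87, 6.89 and 6.98 in untreated CP70, a change of 2.89 ± 0.29 (SE; 7.42-fold; adjusted p = 1.53e-06). HOXB9 was at 6.14, 5.86 and 5.74 in A2780 and at 8.15, 7.15 and 8.19 in untreated CP70, a change of 1.92 ± 0.22 (SE; 3.78-fold; adjusted p = 9.22e-06). In HOXB8 the A2780 arrays were the scattered ones and the CP70 arrays nearly equal, whereas in HOXB9 CP70 replicate 2 lay about 1 log2 unit under replicates 1 and 3. HOXB13, the most posterior gene of the cluster and known for its role in the prostate, was at 5.38, 5.10 and 5.26 in A2780 and at 6.31, 6.81 and 6.52 in untreated CP70 (change 1.30 ± 0.11, SE; 2.47-fold). Its groups did not overlap either.

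HOXB2, HOXB3 and HOXB4 were already above the median of all gene values (6.28) in A2780, and HOXB5 narrowly so (mean 6.32). HOXB1 and HOXB-AS1 were below it. HOXB2, which helps to pattern the hindbrain, was at 8.80, 8.79 and 8.83 in A2780 and at 10.19, 9.68 and 10.23 in untreated CP70 (change 1.23 ± 0.22, SE; 2.34-fold; adjusted p = 0.000508). HOXB3 was at 8.29, 8.06 and 8.12 in A2780 and at 9.87, 9.70 and 9.89 in untreated CP70 (change 1.66 ± 0.20, SE; 3.17-fold). HOXB-AS1 was at 5.54, 5.90 and 5.99 in A2780 and at 7.09, 6.48 and 7.05 in untreated CP70 (change 1.06 ± 0.20, SE; adjusted p = 0.000801). In these 3 genes too, replicate 2 was the lowest CP70 array. HOXB4, a factor known for its effect on blood stem cells, was an exception within the block. Its values of 8.23, 8.30 and 8.03 in A2780 and 8.26, 8.59 and 8.23 in untreated CP70 overlapped, with a difference of 0.17 ± 0.12 (SE; adjusted p = 0.335). HOXB1, the most anterior gene, stayed between 5.13 and 5.80 on all 15 arrays and differed by -0.07 ± 0.13 (SE; adjusted p = 0.745).

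**Figure D2:**
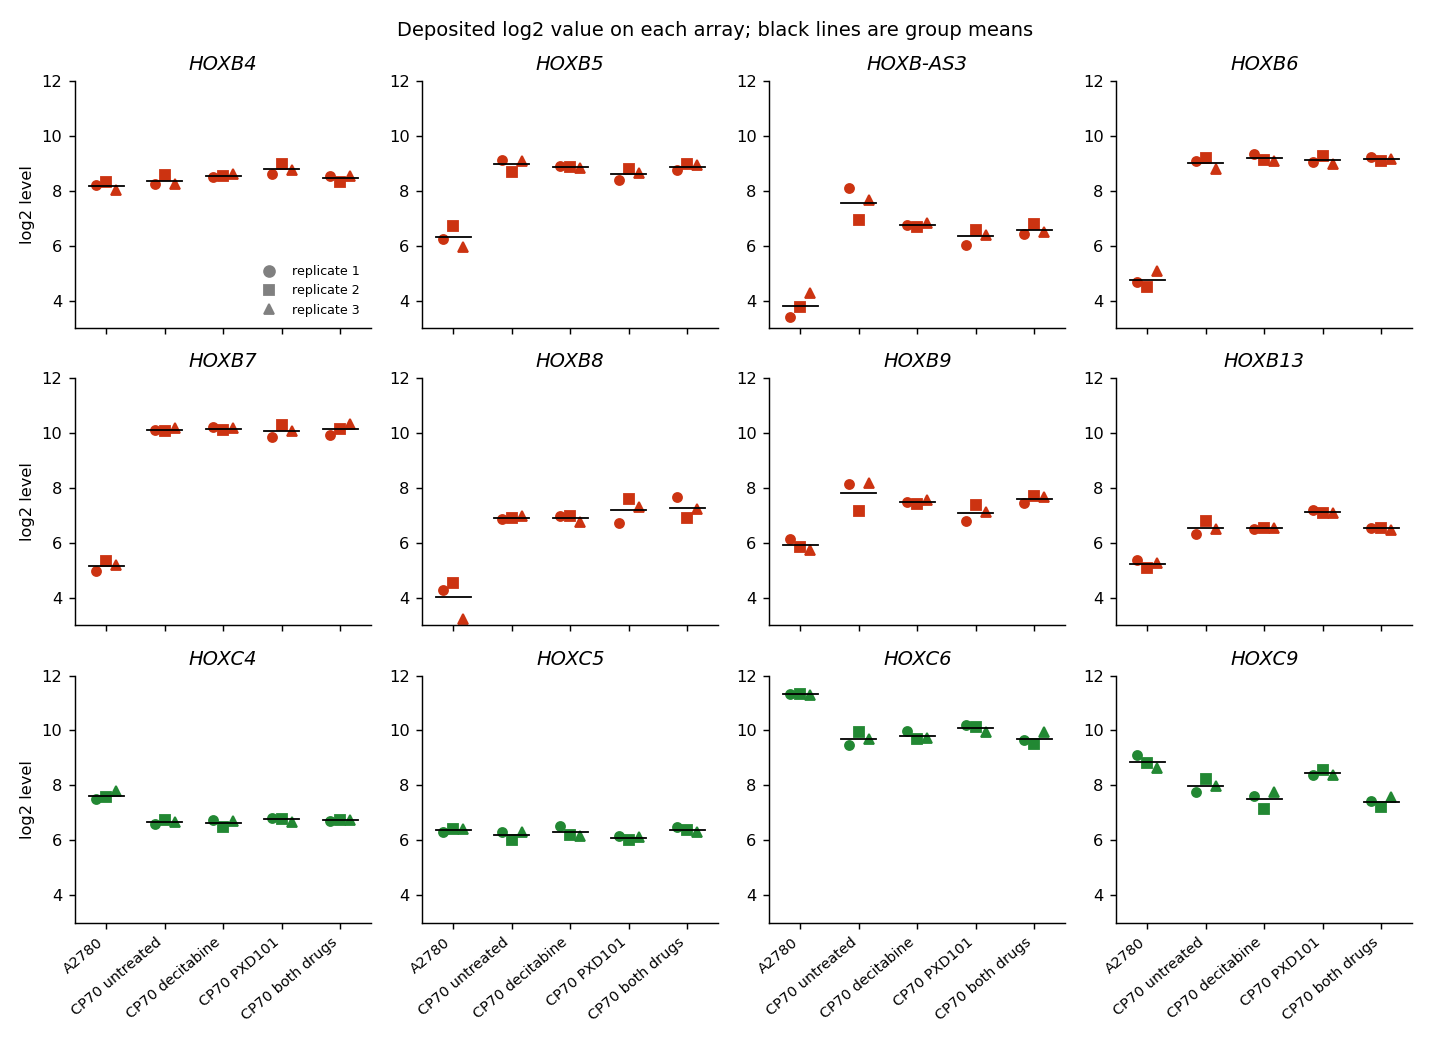
Deposited log2 level (vertical axis) on each of the 15 arrays for 12 HOX genes, by group (horizontal axis), with symbols for the replicate number and black lines for group means of 3 arrays. HOXB5 to HOXB9 with HOXB-AS3 are lower in A2780 than in all 4 CP70 groups. HOXC4, HOXC6 and HOXC9 are the other way round, and HOXB4 and HOXC5 show little separation.

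These rises did not all read alike from the probe sets of a gene. HOXB7 had 3 probe sets with changes of 3.00 to 5.74, all called, and both probe sets of HOXB5 (2.66 and 3.83), HOXB9 (1.50 and 1.92) and HOXB13 (1.30 and 1.42) were called. Both probe sets of HOXB8 were called, at 0.49 and 2.89, so that its 7.42-fold rise is that of the larger one. All 5 probe sets of HOXB-AS3 rose, by 0.48 to 3.75. HOXB6, HOXB3 and HOXB-AS1 each had 1 called probe set and 1 that was not, at 0.08 against 4.27 for HOXB6, 0.32 against 1.66 for HOXB3 and 0.06 against 1.06 for HOXB-AS1. The brighter probe set, used for the gene, carried the larger change in each of these 3 genes. The changes of HOXB6, HOXB3 and HOXB-AS1 therefore rest on 1 probe set of 2.

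**Figure D3:**
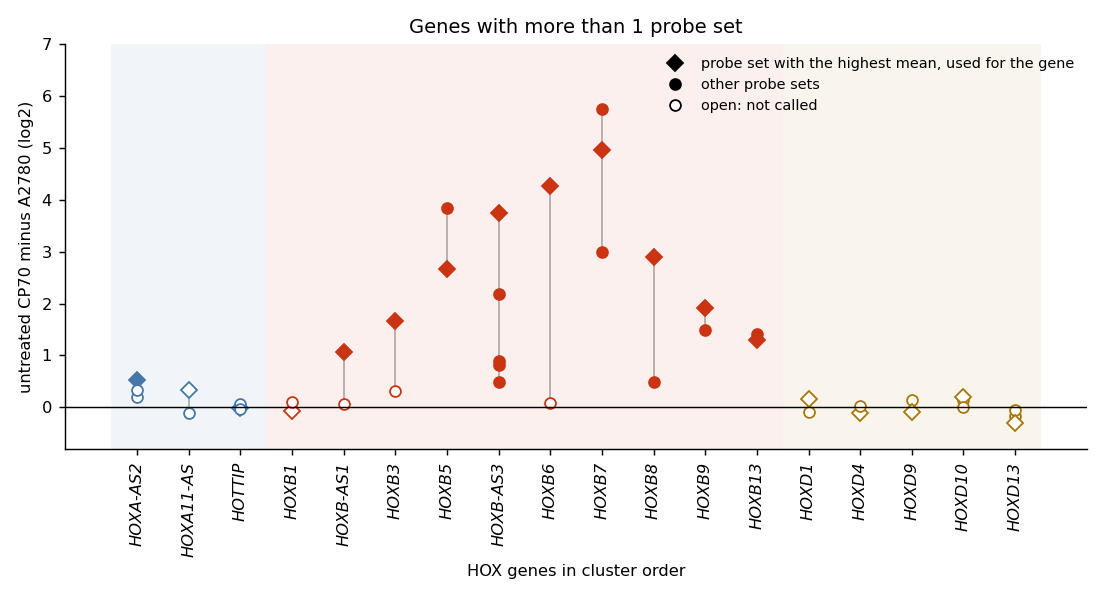
Log2 change in untreated CP70 against A2780 (vertical axis) for every probe set of the 18 HOX genes with more than 1 (horizontal axis, in cluster order); diamonds are the probe sets used for the gene, circles the others, and filled symbols have an adjusted p under 0.05 over all probe sets. The 3 probe sets of HOXB7 lie between 3.00 and 5.74, while those of HOXB6 lie at 0.08 and 4.27.

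The HOXC cluster split by position. Of its genes from group 4 to group 10, HOXC4, HOXC6, HOXC9 and HOXC10 were higher in A2780. HOXC6, a group 6 factor that is active in many tumours, was at 11.33, 11.31 and 11.31 in A2780 and at 9.47, 9.93 and 9.70 in untreated CP70, a change of -1.62 ± 0.13 (SE; 3.07-fold lower; adjusted p = 1.74e-07). HOXC4 was at 7.52, 7.57 and 7.80 in A2780 and at 6.59, 6.75 and 6.68 in untreated CP70, a change of -0.96 ± 0.10 (SE; adjusted p = 2.08e-06). The A2780 arrays of HOXC6 were nearly equal, and both genes separated the lines without overlap.

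HOXC9 was at 9.10, 8.80 and 8.62 in A2780 and at 7.75, 8.24 and 7.96 in untreated CP70 (change -0.86 ± 0.17, SE; adjusted p = 0.00116). HOXC10, a group 10 gene, was at 9.60, 9.62 and 9.73 in A2780 and at 8.61, 9.29 and 8.94 in untreated CP70 (change -0.71 ± 0.14, SE; adjusted p = 0.000897). In both genes CP70 replicate 2 was the CP70 array nearest to A2780. HOXC5 was at 6.31, 6.40 and 6.42 in A2780 and at 6.31, 6.01 and 6.29 in untreated CP70, with a difference of -0.17 ± 0.11 (SE; adjusted p = 0.275) and overlapping arrays. HOXC8, at 6.82, 6.57 and 6.29 in A2780 and 6.34, 6.40 and 6.28 in untreated CP70, differed by -0.22 ± 0.14 (SE; adjusted p = 0.271) and overlapped as well.

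HOXC4, HOXC5 and HOXC6 have the same outermost start in the RefSeq table, and the windows of HOXC4 and HOXC5 are the same stretch, chr12:54016638-54016887 (GRCh38.p14, plus strand). It is shown because genes that share it differed in their change, with HOXC4 and HOXC6 called and HOXC5 not, a difference between genes that was not itself tested. CG pairs are in capitals.
HOXC4 and HOXC5: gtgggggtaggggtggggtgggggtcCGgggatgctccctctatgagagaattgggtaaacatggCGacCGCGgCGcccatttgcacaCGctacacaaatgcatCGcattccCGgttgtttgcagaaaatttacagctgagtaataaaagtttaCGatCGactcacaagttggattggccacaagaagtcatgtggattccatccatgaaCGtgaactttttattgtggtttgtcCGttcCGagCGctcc
The stretch holds 14 CG pairs.

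The posterior HOXC genes moved the other way. HOXC13, which acts in hair and nail, was at 4.52, 5.08 and 5.16 in A2780 and at 6.48, 6.12 and 6.24 in untreated CP70 (change 1.35 ± 0.18, SE; 2.56-fold; adjusted p = 3.08e-05). HOXC11 was at 4.90, 5.42 and 5.50 in A2780 and at 6.17, 5.90 and 6.35 in untreated CP70 (change 0.86 ± 0.17, SE; adjusted p = 0.000902). Both rose from values under the median of all genes, without overlap of the arrays. HOTAIR, the noncoding RNA of this cluster that is known to bind Polycomb proteins, stayed between 2.88 and 3.70 on all 15 arrays. HOXC12 and HOXC-AS3 were not called between the untreated lines.

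In the HOXA cluster 2 genes rose. HOXA2, the group 2 factor of the second branchial arch, was at 3.55, 3.79 and 3.51 in A2780 and at 4.41, 4.39 and 4.44 in untreated CP70 (change 0.80 ± 0.18, SE; adjusted p = 0.00286). HOXA-AS2 was at 4.59, 4.77 and 4.61 in A2780 and at 5.27, 5.17 and 5.14 in untreated CP70 (change 0.54 ± 0.10, SE; adjusted p = 0.00046), and 1 of its 3 probe sets was called. Both are changes at low signal: HOXA2 crossed the lower quartile, and HOXA-AS2 lay just above it. HOTTIP, a noncoding RNA at the posterior end of the cluster, was at 6.50, 6.14 and 6.01 in A2780 and at 6.54, 6.07 and 6.02 in untreated CP70 (difference -0.01 ± 0.16, SE; adjusted p = 0.979). HOXA-AS3 and HOXA11-AS were not called.

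HOXA2 is the coding HOXA gene with a probe set here, and the 250 bases before its start are chr7:27102684-27102933 (GRCh38.p14), read on the minus strand with CG pairs in capitals.
HOXA2: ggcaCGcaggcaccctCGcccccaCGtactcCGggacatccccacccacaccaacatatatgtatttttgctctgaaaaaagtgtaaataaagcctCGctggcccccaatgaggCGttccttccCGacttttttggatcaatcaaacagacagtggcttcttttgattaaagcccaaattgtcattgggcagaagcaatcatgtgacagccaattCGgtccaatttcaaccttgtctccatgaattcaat
This window holds 8 CG pairs and 1 match to TGATNNAT, a form of the site bound by pairs of PBX and HOX proteins, searched on both strands. Such a match was found in 4 of the 18 HOX windows and in 6.47% of all windows, and TATAAA, searched on both strands, in 1 of the 18 and in 10.7% of all.

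The HOXD probe sets gave weak signals. All 9 genes lay below the median of all gene values in every group, 4 of them below the lower quartile, and their arrays ran from 3.14 to 5.75. None of the 8 coding HOXD genes was called between the lines, and neither was any of their probe sets. Rank product called none of the 8 either, and only HOXD13 had an unadjusted p under 0.05, with a difference of -0.30 ± 0.14 (SE; adjusted p = 0.122). HOXD-AS2, an antisense RNA next to HOXD8, was the exception at 4.75, 4.47 and 4.85 in A2780 and 5.75, 5.01 and 5.66 in untreated CP70 (change 0.78 ± 0.19, SE; adjusted p = 0.00494). Replicate 2 was again the lowest CP70 array. Across all clusters, 14 genes had no group mean above the median and were not called between the untreated lines or against untreated CP70. Their arrays ran from 2.88 to 5.81. HOXC5, HOXC8 and HOTTIP were not called there either, but each had a group mean above the median. Of the 14, HOXC-AS3 and HOXD13 were called in decitabine against A2780.

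The untreated replicates carried part of these calls. Without untreated CP70 replicate 2, 20 HOX genes were called, beside 38.2% of all genes. Without untreated CP70 replicates 1 and 3, so that replicate 2 alone stood for the line and was assumed to vary like the other groups, 12 of the 19 HOX genes were still called, beside 17% of all genes. HOXA2, HOXB2, HOXB-AS1, HOXC9, HOXC10, HOXC11 and HOXD-AS2 then had adjusted p-values of 0.0580 to 0.392, the last for HOXD-AS2. HOXB3, HOXB5 to HOXB9 with HOXB-AS3, HOXB13, HOXC4, HOXC6, HOXC13 and HOXA-AS2 kept their calls under every alternative with a test of its own.

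The difference between the lines was also seen after treatment. All 12 CP70 arrays, treated or not, lay above all 3 A2780 arrays in 13 of the 37 HOX genes, beside 10.9% of all genes, and below them in 4, beside 9.7%. The 13 were 9 HOXB genes, 2 HOXA genes, HOXC11 and HOXC13, and the 4 were HOXC4, HOXC6, HOXC9 and HOXC10. HOXB7, for example, ranged from 9.85 to 10.35 over the 12 CP70 arrays and from 4.99 to 5.33 over the A2780 arrays. After decitabine, 16 HOX genes were higher and 5 lower than in A2780, beside 29.9% of all genes called (17% higher and 12.9% lower). This comparison shares its A2780 arrays with the one between the untreated lines. HOXB4 and HOXC-AS3 (higher) and HOXD13 (lower) were called here but not between the untreated lines. Each of these calls was lost under some alternatives. HOXB7 was at 10.23, 10.11 and 10.17 after decitabine (5.00 ± 0.13 above A2780, SE), HOXB6 at 9.35, 9.12 and 9.08, and HOXC6 at 9.98, 9.67 and 9.71. The levels of these genes after decitabine lay close to those of untreated CP70, far from A2780.

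Decitabine alone moved no HOX gene past the threshold. None of the 37 was called in limma, beside 8.01% of all genes (4.87% higher and 3.14% lower), 4 had an unadjusted p under 0.05, and rank product called 5, all lower (HOXB-AS1, HOXB-AS3, HOXB9, HOXC9 and HOXC13), beside 14.6% of all genes. HOXB-AS3 came nearest. Its values of 6.77, 6.67 and 6.84 after decitabine lay below the untreated values of 8.09, 6.92 and 7.65 without overlap, a difference of -0.79 ± 0.26 (SE; adjusted p = 0.0722). HOXC9 was at 7.61, 7.14 and 7.76 after decitabine, of which 7.76 reached into the untreated range (difference -0.48 ± 0.17, SE; adjusted p = 0.0985). Without untreated replicate 2, 4 HOX genes were called lower, beside 23.6% of all genes. HOTTIP, whose window has the most CG pairs of the 18 (38), differed by 0.09 ± 0.16 (SE) after decitabine. A link between CG pairs and the response was not tested.

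**Figure D4:**
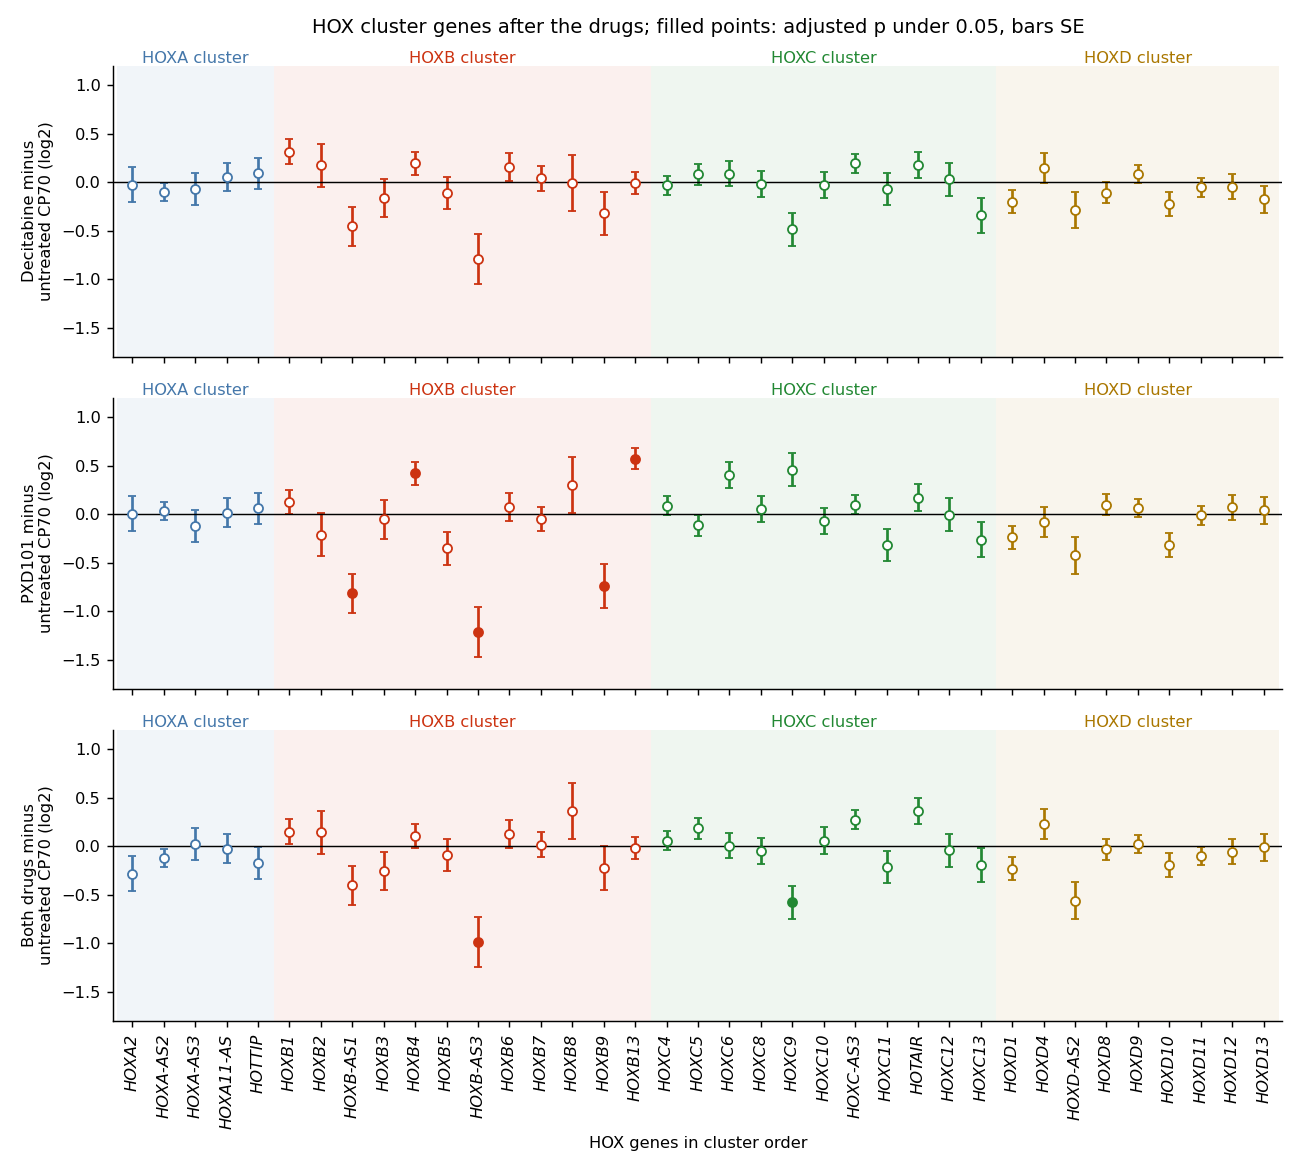
Log2 change against untreated CP70 (vertical axes, means of 3 arrays with SE) after decitabine, PXD101 and both drugs, for the 37 HOX genes in cluster order (horizontal axis); filled points have an adjusted p under 0.05. The top panel has no filled point, the middle one has 5, all in HOXB, and the bottom one has HOXB-AS3 and HOXC9.

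With PXD101 alone 5 HOX genes were called, all in the HOXB cluster, and each call depended on single arrays, as given below. HOXB-AS1, HOXB-AS3 and HOXB9 fell and HOXB4 and HOXB13 rose, which is 5 of 37, beside 10.7% of all genes called (5.57% higher and 5.15% lower). HOXB-AS3 was at 6.03, 6.57 and 6.41, against 8.09, 6.92 and 7.65 in untreated cells (change -1.22 ± 0.26, SE; 2.32-fold lower; adjusted p = 0.0218). Of its 5 probe sets, 4 were called lower. HOXB-AS1 was at 5.60, 6.28 and 6.29, against 7.09, 6.48 and 7.05 (change -0.82 ± 0.20, SE; adjusted p = 0.0276), again without overlap. HOXB9 was at 6.78, 7.38 and 7.12, against 8.15, 7.15 and 8.19 (change -0.74 ± 0.22, SE; adjusted p = 0.0492), and here the arrays overlapped.

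The rises were smaller. HOXB13 was at 7.20, 7.08 and 7.09 after PXD101, against 6.31, 6.81 and 6.52 (change 0.57 ± 0.11, SE; adjusted p = 0.0210), and HOXB4 was at 8.63, 8.97 and 8.74, against 8.26, 8.59 and 8.23 (change 0.42 ± 0.12, SE; adjusted p = 0.0411). Neither overlapped the untreated arrays. In all 5 genes untreated replicate 2 was the untreated array nearest to the PXD101 mean. All 5 calls were lost without untreated replicate 1, without untreated replicate 3, without any 1 of the PXD101 arrays, and when only the arrays of the groups compared were fitted, and none of the 19775 genes was called in those settings. With replicate 2 as the only untreated array no gene was called either, and without replicate 2 there were 10 HOX genes, beside 29% of all genes. The central genes HOXB5, HOXB6, HOXB7 and HOXB8 were not called, and HOXB7, at 9.85, 10.31 and 10.08, differed from untreated cells by less than the spread of the PXD101 arrays.

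With both drugs, 2 HOX genes fell and none rose, beside 10.4% of all genes called (6.17% higher and 4.22% lower). HOXB-AS3 was at 6.44, 6.78 and 6.48 (change -0.99 ± 0.26, SE; 1.98-fold lower; adjusted p = 0.0236). It was below untreated CP70 on every array of the 3 drug groups, and 3 of its probe sets were called lower here. HOXC9 was at 7.43, 7.23 and 7.56, against 7.75, 8.24 and 7.96 (change -0.58 ± 0.17, SE; adjusted p = 0.0432), without overlap. Both calls were lost without untreated replicate 3, without replicate 1 or 3 of the arrays with both drugs, and when only the arrays compared were fitted. HOXB-AS3 was also lost without untreated replicate 1, and HOXC9 without untreated replicate 2 and without replicate 2 of both drugs. Without untreated replicate 2, 1 HOX gene was called higher and 4 lower, beside 24.9% of all genes. The 3 comparisons share the untreated arrays, so that a low or high untreated array enters all of them.

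Differences between the drug groups use no untreated mean, but their errors come from the fit of all 15 arrays, the untreated ones included. Against PXD101 alone, HOXC9 and HOXB13 were lower both with both drugs and with decitabine alone, which is 2 of 37 in each case, beside 9.94% of all genes (5.91% higher and 4.03% lower) for both drugs and 8.15% (4.9% higher and 3.26% lower) for decitabine. With only the arrays compared, 4 HOX genes were called for both drugs against PXD101, beside 3174 of all 19775 genes. The 2 comparisons share the PXD101 arrays. HOXC9 was at 8.38, 8.57 and 8.37 after PXD101, above all arrays with decitabine (7.61, 7.14 and 7.76) and with both drugs (7.43, 7.23 and 7.56). The differences were -0.94 ± 0.17 for decitabine against PXD101 (SE; adjusted p = 0.00279) and -1.03 ± 0.17 for both drugs against PXD101 (SE; adjusted p = 0.00113). HOXB13, at 7.20, 7.08 and 7.09 after PXD101, was at 6.53, 6.56 and 6.54 after decitabine and at 6.56, 6.53 and 6.49 after both drugs. Its differences were -0.58 ± 0.11 for decitabine against PXD101 (SE; adjusted p = 0.0045) and -0.59 ± 0.11 for both drugs against PXD101 (SE; adjusted p = 0.0032). These 4 calls were kept under every alternative with a test of its own. PXD101 was given for 48 h alone and for 24 h with decitabine, so that exposure and combination cannot be told apart.

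Both drugs against decitabine called none of the 37 HOX genes in limma, with none at an unadjusted p under 0.05, beside 0.0101% of all genes, while rank product called 2 (HOXB8 and HOXD-AS2), beside 6.99% of all genes. The test for a non-additive response, the change with both drugs minus the sum of the changes with each, also called none, beside 0.0152% of all genes. There 7 HOX genes had an unadjusted p under 0.05, among them HOXB13 at -0.59 ± 0.16 (SE; adjusted p = 0.191) and HOXB-AS3 at 1.02 ± 0.36 (SE; adjusted p = 0.198). Rank product was not computed for this contrast. Without untreated replicate 2, 6 HOX genes were called there, beside 20.5% of all genes.

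Other genes of the HOX pathway were read on the same arrays. Of the PBX, MEIS and PKNOX cofactors, 8 of 9 were measured, of which 5 fell and none rose in untreated CP70, beside 15.2% of all genes lower and 16.1% higher, with a median change of -0.75 against 0.01 over all genes. MEIS1 was at 9.62, 9.72 and 9.72 in A2780 and at 4.07, 4.59 and 4.0 in untreated CP70 (change -5.47 ± 0.15, SE; adjusted p = 3.30e-13). MEIS2 fell by 1.84 (adjusted p = 2.64e-07) and PBX3 fell by 1.68 (adjusted p = 8.01e-09), and PBX2 and MEIS3 were lower too. The direction was thus opposite to that of the HOXB genes on the same arrays. After PXD101, MEIS1, MEIS2 and PBX2 rose, by 0.52, 0.53 and 0.56, in the comparison whose calls depended on single arrays as described for HOXB. PBX2 also rose after decitabine (0.76) and after both drugs (0.80).

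Among the retinoic acid and CDX genes, which act upstream of HOX clusters in the embryo, 16 of 19 were measured, 5 rose and 1 fell between the lines (median change 0.14), beside 31.2% of all genes called. ALDH1A1, an enzyme that makes retinoic acid, was at 5.41, 5.54 and 5.82 in A2780 and at 11.48, 11.16 and 11.58 in untreated CP70 (change 5.82 ± 0.14, SE; adjusted p = 1.29e-13). RARB, a retinoic acid receptor that is itself induced by retinoic acid, was at 5.12, 5.14 and 4.17 in A2780 and at 10.20, 9.12 and 10.03 in untreated CP70 (change 4.97 ± 0.30, SE). The size of the RARB change ran from 2.01 to 5.30 over the alternatives. CYP26A1 and CYP26B1, which break retinoic acid down, rose by 2.38 and 1.14, ALDH1A3 rose by 0.42, and GDF11 fell by 0.82. After decitabine CYP26B1 and CRABP2 rose and ALDH1A1 fell (-0.69 ± 0.14, SE), and the same 3 were called with both drugs. With PXD101 CRABP2 alone was called, in the comparison whose calls depended on single arrays.

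Of the Polycomb and Trithorax genes, 18 of 22 were measured, 8 rose and 3 fell in untreated CP70, beside 16.1% of all genes higher and 15.2% lower, with a median change of 0.04. EZH2, the enzyme that sets the repressive histone mark of Polycomb, rose by 0.54 (adjusted p = 0.000136), KDM6B, which removes that mark, rose by 0.72, and KMT2A, a Trithorax methyltransferase, rose by 0.44. CBX2, PHC1 and JARID2 fell, by 1.62, 1.35 and 0.56, and CBX2 was not called without untreated CP70 replicates 1 and 3 (-0.43, adjusted p = 0.315). Decitabine called WDR5 higher and PCGF2 lower, both drugs called WDR5 higher and PCGF2 and KMT2A lower, and PXD101 called none of the 18 in limma, beside 8.01%, 10.4% and 10.7% of all genes in these 3 comparisons. With PXD101, 6 of the 18 had an unadjusted p under 0.05 and rank product called 3.

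Genes beside the clusters were followed as well. Of 15 listed, 13 were measured, 4 rose and 2 fell between the lines, beside 31.2% of all genes called, with a median change of -0.01. SKAP1, SNX11 and CALCOCO2 near the HOXB cluster rose by 1.25, 0.32 and 1.75, and SKAP2 near HOXA rose by 1.39. CBX5 near HOXC fell by 1.21 and LNPK near HOXD by 0.59. PRAC1, which lies between HOXB9 and HOXB13, was at 3.59, 3.47 and 3.47 in untreated CP70 and at 5.48, 5.44 and 4.93 after decitabine (change 1.77 ± 0.18, SE; adjusted p = 2.03e-05). With both drugs it was at 6.06, 5.25 and 5.75 (change 2.18 ± 0.18, SE; adjusted p = 1.89e-06), and with PXD101 at 3.56, 3.67 and 3.91. PRAC1 thus separated the groups given decitabine from all the others, while its neighbours HOXB9 and HOXB13 were not called after decitabine in limma, although rank product called HOXB9 lower. CALCOCO2 fell after PXD101 (-1.21 ± 0.25, SE; adjusted p = 0.0218) and after both drugs (-0.85 ± 0.25, SE; adjusted p = 0.0444), and CBX5 rose after PXD101 (0.63 ± 0.13, SE; adjusted p = 0.0218), each opposite in sign to its difference between the lines. These comparisons share the untreated arrays with that difference, and the calls after PXD101 depended on single arrays as described for HOXB.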

How the data were processed

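The deposited table holds the authors' log2 values for 54675 probe sets on 15 arrays, a scale inferred from their range (2.39 to 14.5). Background correction and normalization were not stated beyond R 2.10.1 and affy, per the submitters' processing notes. Arrays give no depth, and their number, 3 per group, limits the precision. Platform symbols were updated through Entrez IDs to RefSeq (41037 of 41091 single-symbol probe sets matched). Left out were 1801 probe sets with several symbols, 11777 with none and 62 controls. The probe set with the highest mean stood for a gene. All 19775 genes were fitted in limma 3.58.1 (R 4.3.3) with 1 mean per group over all 15 arrays. Calls needed an adjusted p (Benjamini-Hochberg, over all genes) under 0.05. Rank product, named in the series' design text, was an alternative (Python 3.11.15 with numpy 2.4.6 and pandas 2.3.3). It used 9 array pairs, 100 permutations and a limit of 5% on the estimated share of false positives. The 9 pairs reuse the 3 arrays of each group, so this estimated share can be too low. Among rank product calls, false positives may therefore exceed 5%. Other alternatives changed the arrays fitted, weights, filters, probe sets or scaling, added a replicate block, or left arrays out. Both tests were checked on simulated data.

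Members, lists and alternatives were chosen with earlier results of these data known. The rule named each member called between the untreated lines or between a drug group and untreated CP70, and each with a group mean above the median of all gene values, together 23 genes, of which HOXC5, HOXC8 and HOTTIP enter by level alone. Called genes of the other lists were named too, at most 8 per list. HOXB1, HOXC12, HOXC-AS3, HOTAIR, HOXA-AS3, HOXA11-AS and HOXD13 are named beyond the rule, after their values were seen, to account for members. Promoter windows are from RefSeq (GRCh38.p14).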

Additional observations from a re-analysis of the deposited data

How the results depend on the processing

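None of the called changes of HOX genes reversed. Of 33 calls of single genes, 16 were kept under every alternative with a test of its own. So were 431 of 511 pairs of call and such an alternative. The minimum change of 2-fold was not among these alternatives. Between the lines, the count of 19 HOX genes became 12 at a minimum change of 2-fold and 12 without untreated CP70 replicates 1 and 3, and was 19 to 20 when single arrays were left out. Counts against untreated CP70 moved most. For decitabine the count of 0 became 1 with the mean of all probe sets, 1 with every probe set tested, 12 with array weights and 5 by rank product, and 0 to 4 with single arrays left out, the 4 without untreated replicate 2. For PXD101 the count of 5 became 0 with only the arrays compared, 3 with the mean of all probe sets, 13 with array weights, 0 without untreated replicates 1 and 3 and 1 at 2-fold, and 0 to 10 with single arrays left out. For both drugs the count of 2 became 0 with only the arrays compared, 1 among genes above the median, 10 with array weights, 0 without untreated replicates 1 and 3, 0 at 2-fold and 4 by rank product, and 0 to 5 with single arrays left out. Between drug groups, both drugs against decitabine went from 0 to 2 by rank product, beside 6.99% of all genes. Both drugs against PXD101 went from 2 to 4 with only the arrays compared, beside 3174 of all 19775 genes. That count became 6 with array weights, beside 4840 genes, and 5 by rank product, beside 18.6%. It was 1 at 2-fold and 2 to 3 when single arrays were left out. Decitabine against PXD101 went from 2 to 0 at 2-fold and to 4 by rank product, beside 17.2% of all genes. Decitabine against A2780 went from 21 to 12 at 2-fold, with 18 to 20 when single arrays were left out. The non-additive count of 0 became 9 with array weights, beside 5329 of all 19775 genes. With single arrays left out it was 0 to 6, the 6 without untreated replicate 2, beside 20.5% of all genes. With array weights 6668, 8634 and 8125 of all genes were called for decitabine, PXD101 and both drugs, in place of 1583, 2119 and 2055. Against untreated CP70, rank product called 14.6% of all genes for decitabine and 15.9% for both drugs. The causes were not tested.

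No pairing by replicate number was evident. Deviations from the group means correlated at -0.38 to 0.49 (median 0.022) for same-numbered arrays and at -0.459 to 0.474 for other arrays. Untreated replicate 2, decitabine replicate 3, PXD101 replicate 1 and replicate 1 of both drugs correlated with each other at 0.371 to 0.490. Such shared deviations fall in both ranges, so that this check cannot exclude pairing. Their cause was not tested. With the replicate number as a block, 3 HOX genes were called for PXD101 in place of 5 and 1 for both drugs in place of 2. Changes at low signal, such as those of HOXA2, HOXA-AS2 and HOXD-AS2, are near the floor of the arrays, and the table holds no detection calls.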

Other observations

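Of 4 HOX probe sets left out because the annotation gives them several symbols, the 3 shared by HOXD3, HOXD4 and LOC401021 stayed between 2.83 and 3.80 on all 15 arrays. None of these 3 was called in a comparison. The other, shared by HOXA10-AS and MIR196B, lay between 3.50 and 4.44 on all arrays. It was higher in untreated CP70 than in A2780 by 0.45 ± 0.15 (SE; limma adjusted p = 0.0383 over all probe sets) and higher after decitabine than in A2780 by 0.44 ± 0.15 (SE; adjusted p = 0.0433). Which of the paired genes gave the signal cannot be told apart.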
